A study of Mus musculus with 9 samples.

Results

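Starburst amacrine cells are the cholinergic interneurons of the retina, and 146 of the 31089 cells sequenced here (0.470%) were taken as starburst cells. They were chosen by their counts: a cell had to hold at least 1 unique molecular identifier (UMI, 1 captured RNA molecule) of at least 2 of the 3 cholinergic genes *Chat*, *Slc18a3* and *Slc5a7*, and at least 1 UMI of *Gad1* or *Gad2*. All mice carried the alleles RPE65-ERT2-Cre.miR-211fl.miR-204fl, in which the *Rpe65* promoter directs a tamoxifen-dependent Cre to the retinal pigment epithelium (RPE), so the deletion was not aimed at amacrine cells. The 4 control mice (S01 to S04) had received corn oil alone, and the 5 dKO mice (S05 to S09) tamoxifen in corn oil at 75 mg/kg, on 5 days starting at postnatal day 28. Retinas were peeled from the eye cup, dissociated with papain and sequenced as single cells labelled by split-pool barcoding, and the label gives a time of 6 months. Samples S06 and S07 share an animal number but differed in *Xist* and Y-linked RNA, and were kept as separate mice.

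Starburst cells release both acetylcholine and GABA. They come as a mirror pair of populations, OFF cells with bodies in the inner nuclear layer and ON cells displaced to the ganglion cell layer, and their neurites stratify in separate sublayers of the inner plexiform layer. Each neurite responds best to motion away from the cell body, and their asymmetric GABA release makes direction-selective ganglion cells prefer a direction of motion. Choline acetyltransferase (*Chat*) makes acetylcholine, the vesicular transporter encoded by *Slc18a3* loads it into vesicles, and *Slc5a7* takes choline back up. *Gad1* and *Gad2* encode the enzymes that make GABA.

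The microRNAs that were deleted in the dKO mice are printed to show how alike they are. In these RefSeq sequences, capitals mark the seed, bases 2 to 8, with which a microRNA recognises its targets:
mmu-miR-204-5p: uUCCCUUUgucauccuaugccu
mmu-miR-211-5p: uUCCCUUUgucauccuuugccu
Both are 22 bases long and have the seed UCCCUUU. They differ at a single base, A17U, counted from the 5′ end of miR-204-5p. The matrix lists no gene row for either microRNA, and whether they were lost was not measured here.

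Total counts ranged from 15079143 to 66528160 UMIs per mouse. S04, S05 and S07 stood apart: rod-rich cells, with at least 1% of their UMIs on 5 rod genes, made up 65.7% to 79.97% of their cells against 21.1% to 31.8% in the other mice, and their cells held Y-linked RNA where those of the other mice held *Xist*. No cell barcode occurred in more than 1 mouse, whereas 2808 barcodes occurred in more than 1 of the 8 sublibraries, none of them on a pair of starburst cells. The starburst cells came from all sublibraries, with 13 to 26 in each.

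The rule genes describe how the members were found and were not tested. *Chat* and *Gad1* were detected in 146 of 146 members, *Slc5a7* in 142 and *Slc18a3* in 111, with medians of 24, 23, 18 and 2 UMIs per cell. *Gad2* was detected in 15 members. The commonest combination was all 3 cholinergic genes with *Gad1* alone, in 100 cells. *Chat* (ENSMUSG00000021919) spans chr14:32129369-32187946 on the minus strand of GRCm39, and *Slc18a3* (ENSMUSG00000100241) lies inside it at chr14:32184395-32186807 on the same strand, overlapping 0 annotated exons of *Chat*. Reads from unspliced *Chat* RNA that cover this stretch cannot be told apart from *Slc18a3* RNA, so the pair is not fully independent. Members held 6986 to 150637 UMIs (median 33437.5), more than the median of 24895 in the other GABAergic amacrine cells described next, and 55 of the 146 were among the top 5% of cells by UMIs. Doublets were not removed.

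The closest cells for comparison were 1360 other GABAergic amacrine cells, which had at least 2 UMIs of *Gad1* plus *Gad2*, at least 1 of the amacrine transcription factor genes *Tfap2a* or *Tfap2b*, and 0 UMIs of the 3 cholinergic genes, of *Slc6a9* and of *Lhx1*. As a description, *Gad1* was at 692 ± 97.0 CPM (counts scaled to a total of 1000000, SD, n = 7 mice) in starburst cells and 551 ± 36.4 in these cells, while *Gad2* was at 13.2 ± 11.7 against 280 ± 35.2. Of the RNAs for the GABA-making enzymes, that of *Gad1* was thus by far the commoner in starburst cells.

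The label was checked with genes the rule did not use. *Isl1*, a LIM-homeodomain transcription factor of starburst cells, was detected in 138 of 146 members (94.5%), against 9.04% of the other GABAergic amacrine cells and 3.14% of rod-rich cells, whose median depth was 4887.5 UMIs. *Calb2* (calretinin) was also detected in 138 members, against 6.10% and 1.86%. *Sox2*, a transcription factor retained by starburst cells, was detected in 94 members (64.4%), against 2.06% and 0.58%. At least 2 of the 4 markers *Sox2*, *Isl1*, *Megf10* and *Calb2* were detected in 137 of 146 members (93.8%), in 44 of 1360 other GABAergic amacrine cells (3.24%) and in 62 of 12256 rod-rich cells (0.506%). *Slc35d3*, fixed in the same marker list, was detected in 1 member. *Kcnc2*, also in that list, was detected in 145 members and in 97.2% of the other GABAergic amacrine cells.

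For *Isl1* and *Sox2*, starburst cells still had the highest shares at equal depth. After every cell was thinned to 3000 UMIs, *Isl1* was left in 54.1% of starburst cells, 1.99% of the other GABAergic amacrine cells and 1.45% of rod-rich cells, and *Sox2* in 15.8%, 0.15% and 0.31%. *Slc6a9*, the glycine transporter of glycinergic amacrine cells, was found in 35 members (24.0%) and in 20.8% of rod-rich cells at their lower depth, and where these UMIs came from was not tested.

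**Figure D1:**
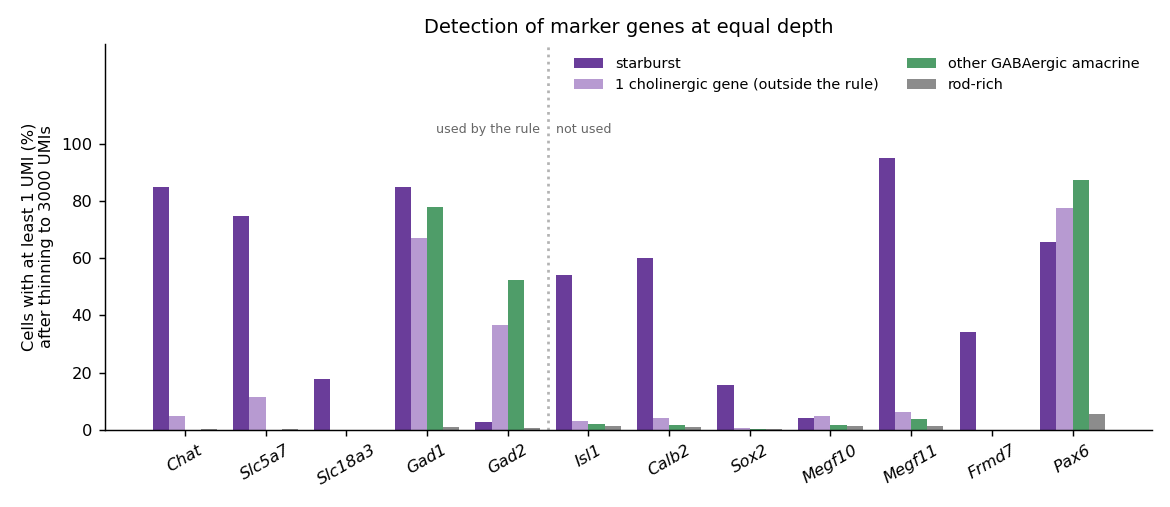
Share of cells with at least 1 UMI of each gene after thinning every cell to 3000 UMIs, in starburst cells, in cells with 1 cholinergic gene outside the rule, in other GABAergic amacrine cells and in rod-rich cells. Genes left of the dotted line were used by the rule, and *Isl1* to the right of it stands at 54.1% in starburst cells against 1.99% in other GABAergic amacrine cells.

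The threshold fell between cells that differed in these markers. Just inside it, 39 members had exactly 2 cholinergic genes, with a median of 25806 UMIs, and 30 of them (76.9%) held at least 2 of the 4 markers. All of the 107 members with 3 cholinergic genes did so. Just outside, 192 cells had 1 cholinergic gene and *Gad1* or *Gad2*, at a median of 27353 UMIs, and 20 of them (10.4%) held at least 2 markers. A further 8 cells had 2 or 3 cholinergic genes without *Gad1* or *Gad2*, and 1 of them held at least 2 markers.

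Starburst cells were found in 8 of 9 mice, and their numbers overlapped between the groups. Among control mice there were 18 in S01, 17 in S02, 18 in S03 and 0 in S04. Among dKO mice there were 4 in S05, 26 in S06, 18 in S07, 22 in S08 and 23 in S09. The 0 of 2711 cells in S04 allows a share of up to 0.111%. S04 also had 15 other GABAergic amacrine cells, the fewest of any mouse, and S05 had 39.

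As a share of all cells, starburst cells made up 0.436%, 0.440%, 0.556% and 0% in the control mice and 0.247%, 0.628%, 0.383%, 0.688% and 0.660% in the dKO mice. The means were 0.358% ± 0.245 (SD, n = 4) and 0.521% ± 0.195 (SD, n = 5), and the values of the groups overlapped (exact permutation test, two-sided, p = 0.310, Benjamini-Hochberg adjusted over 2 comparisons p = 0.310). The difference of 0.163 percentage points fell to 0.0437 without S04. Without S04, S05 and S07 together it was 0.181, with means of 0.477% and 0.658% (exact permutation test, p = 0.1, adjusted p = 0.2). Each dKO mouse left then lay above each control mouse left. The 3 mice with the lowest shares of any were the rod-rich S04, S05 and S07, and the part of rod content in this share was not tested.

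Set against GABAergic amacrine cells alone, starburst cells made up 6.79%, 7.94%, 10.1% and 0% in control mice and 9.30%, 10.8%, 19.6%, 8.98% and 10.8% in dKO mice. The groups overlapped, and S07 was the highest. The means were 6.198% ± 4.35 (SD, n = 4) and 11.9% ± 4.37 (SD, n = 5), with p = 0.0476 in the exact permutation test (two-sided, smallest possible p 0.00794) and an adjusted p of 0.0952 over the 2 comparisons. The difference of 5.70 percentage points was 3.63 without S04, 3.78 without S07 and 1.94 without S04, S05 and S07 together. Intervals around the shares cover counting error only, and S04's 0 of 15 cells allows a share of up to 20%.

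**Figure D2:**
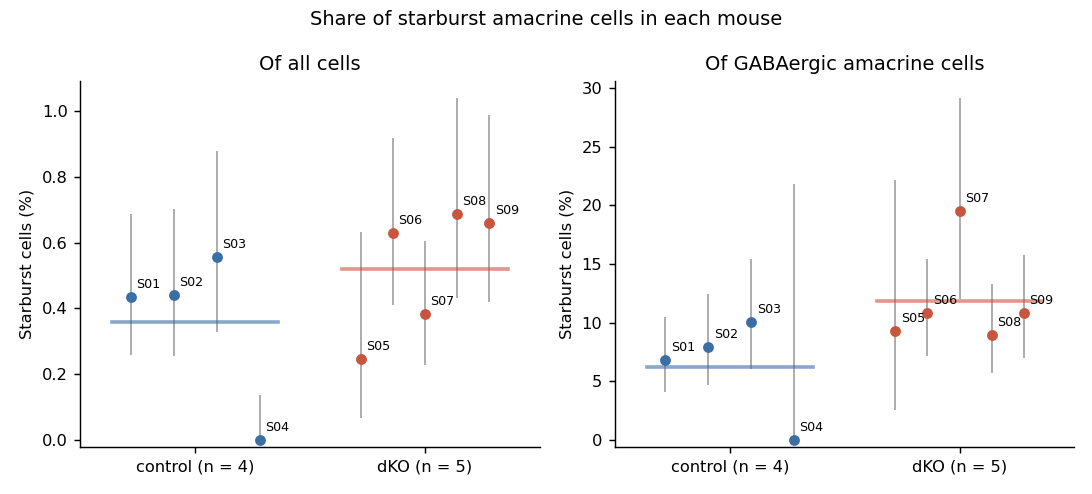
Starburst cells as a percent of all cells and of GABAergic amacrine cells in each mouse. Points are mice, grey bars are exact 95% binomial intervals, and horizontal lines are group means, 0.358% and 0.521% on the left and 6.198% and 11.9% on the right.

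Starburst cells were then compared with the other GABAergic amacrine cells of the same mice, which asks what sets them apart beyond the rule genes. Counts were summed over the cells of each kind in each of the 7 mice with at least 10 cells of both (S01 to S03 and S06 to S09), and tested with edgeR's quasi-likelihood test with the mouse as a block and Benjamini-Hochberg adjustment. Among 10220 genes, 3366 (32.9%) passed at an adjusted p of 0.05, with 1573 (15.4%) higher and 1793 (17.5%) lower in starburst cells. The median log2 fold change over all genes tested was -0.01. A more than 4-fold change was seen for 248 of the higher and 488 of the lower genes. In every one of the 7 mice, 1097 of the higher genes and 1566 of the lower genes moved in the called direction.

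Among genes at 50 CPM or more, the largest rise was that of *Frmd7*, which is mutated in a congenital nystagmus and is needed for the asymmetric wiring of starburst cells. It ranged from 98.8 to 189 CPM (median 167) in starburst cells and from 0 to 0.680 (median 0) in the other cells, and S07 had the lowest starburst level. Counted over the 7 mice, 794 UMIs of *Frmd7* fell in starburst cells and 4 in the other cells, a ratio of 1363 with a counting interval from 530 to 5016. The fitted log2 fold change was 10.07 (SE 0.30, edgeR adjusted p = 4.26e-10), and 133 of 146 members held at least 1 UMI. *Frmd7* (ENSMUSG00000036131) lies at chrX:49981521-50032529 on the minus strand.

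*Kcnk2*, which encodes the leak potassium channel TREK1, ranged from 232 to 372 CPM (median 283) in starburst cells and from 0.473 to 2.17 (median 0.906) in the other cells. Its log2 fold change was 8.03 (SE 0.17, edgeR adjusted p = 5.07e-11). *Megf11*, a homophilic receptor that spaces starburst and horizontal cells, ranged from 1531 to 2324 CPM (median 1976) against 12.8 to 25.1 (median 18.7), a log2 fold change of 6.78 (SE 0.13, edgeR adjusted p = 3.29e-11). None of the 3 genes overlapped between the cell groups in any mouse.

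The remaining genes of this ranking, with their log2 fold changes, were *Pkp1*, a desmosomal plakophilin (8.65), the long noncoding *Sox2ot* (8.03), *Pde5a*, which breaks down cGMP (7.20), *Mindy4b-ps* (7.06), *Wnt2b* (6.77), the collagen gene *Col25a1* (6.75), *Moxd1* (6.61), the ATP-gated channel gene *P2rx2* (6.53), *Gm2990* (6.51), *Pmfbp1* (6.44), *Hmga2* (6.35) and *Eya2* (6.31). *Sox2* lies inside *Sox2ot* on the same strand, at chr3:34704554-34706610 within chr3:34158419-34789489, and reads over the shared stretch cannot be told apart.

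The largest fall was that of *Tshr*, the thyrotropin receptor gene. It ranged from 0 to 4.61 CPM (median 1.53) in starburst cells and from 92.8 to 177 (median 146) in the other cells, a log2 fold change of -5.69 (SE 0.21, edgeR adjusted p = 2.66e-09). Lower were also *Tacr1*, the substance P receptor gene (-5.32), *Gm13974* (-5.17), the serotonin receptor gene *Htr2c* (-4.95), the calcium pump gene *Atp2b4* (-4.86), *Maf* (-4.86), the axon guidance receptor gene *Robo1* (-4.78), *Hgf* (-4.70), *Klhl1* (-4.67) and *Greb1l* (-4.63). *Robo1* ranged among starburst samples from 7.67 CPM in S09 to 445 in S07, still below the 1796 of the lowest sample of other cells.

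Markers of further cell types differed between these groups as well. In CPM pooled over the cells of all mice, the 5 rod genes summed to 1121 in starburst and 563 in other cells. The 5 ON bipolar genes were at 1025 and 1242, and the 5 OFF bipolar genes at 205 and 375. The 5 cone genes were at 267 and 126 and the 5 Müller glia genes at 155 and 225. By mouse, the rod sum in starburst cells ran from 276 in S08 to 3262 in S07. The Müller glia sum ran from 39.2 in S02 to 557 in S08. The 5 horizontal cell genes were at 230 and 102, the 5 endothelial genes at 118 and 64.0, the 5 microglia genes at 85.3 and 107, the 5 ganglion cell genes at 8.94 and 34.5 and the 5 RPE genes at 14.8 and 16.5. Among amacrine markers, the 5 general genes were at 914 and 2016 and the 5 glycinergic genes at 264 and 441. Some of these genes were used to choose the cells: *Tfap2a*, *Tfap2b* and *Gad2* in the general, *Slc6a9* in the glycinergic and *Lhx1* in the horizontal list. That part of the differences was fixed by the choice. Each list had UMIs of all its genes in starburst cells, except that 1 endothelial and 1 RPE gene were at 0. Their part in single results was not tested.

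Of 15 genes known from starburst cells outside the rule, 13 could be tested, 8 were higher, 2 were lower and 3 did not pass (median log2 fold change 1.72). These and the later list counts stand beside 15.4% of all genes tested that were higher and 17.5% that were lower. *Sox2* ranged from 31.7 to 64.5 CPM (median 43.3) in starburst cells and from 0.473 to 1.77 (median 0.790) in the other cells, a log2 fold change of 5.67 (SE 0.27, edgeR adjusted p = 2.24e-08). *Calb2* rose by 5.27 and *Isl1* by 4.82. *Megf10*, the partner of *Megf11*, rose by 2.31, the metabotropic glutamate receptor gene *Grm2* by 2.04, the muscarinic receptor gene *Chrm2* by 1.92, the semaphorin receptor gene *Plxna2* by 1.72 and the Kv3.1 channel gene *Kcnc1* by 1.20. Its relative *Kcnc2* (Kv3.2) had a log2 fold change of 0.08 (edgeR adjusted p = 0.604) and overlapped, at 669 to 1545 CPM against 829 to 1035. *Gabra2* (0.32) and the chloride importer gene *Slc12a2* (-0.52) did not pass. In edgeR, *Slc12a2* passed under 5 of the alternatives, among them the fit with no replicate block (adjusted p = 0.0358), and *Gabra2* passed with all 3 cholinergic genes required (0.45) or without the cells richest in bipolar RNA (0.55). *Kcnc2* passed without those cells (0.31) or without the top 5% by UMIs (0.26). *Sema6a*, a guidance ligand of ON starburst cells, was lower (-0.99), as was *Rnd3* (-0.95).

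Acetylcholine handling was represented by 9 tested genes of 13, with 4 higher, 1 lower and 4 not passing (median 0.20). *Slc10a4*, a vesicular transporter-like protein of cholinergic neurons, had 144 UMIs in starburst cells and 2 in the other cells over the 7 mice, a ratio of 495 with a counting interval from 134 to 4123. *Prima1*, which anchors acetylcholinesterase in the membrane, ranged from 260 to 425 CPM (median 359) against 62.9 to 80.4 (median 68.5), a log2 fold change of 2.44 (SE 0.08, edgeR adjusted p = 1.72e-09). The acetylcholinesterase gene *Ache* itself was lower, by -0.70 (SE 0.14, edgeR adjusted p = 0.00253), and its groups overlapped. Of the choline transporter-like genes, *Slc44a5* rose by 1.89 and *Slc44a1* by 0.30 (edgeR adjusted p = 0.0219), the latter not passing under several alternative settings, scaling by library size among them.

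Receptors for acetylcholine were mostly lower in starburst cells. Of 18 genes 9 could be tested, and 7 were lower, 1 was higher and 1 did not pass (median -2.48). *Chrm3* ranged from 7.13 to 102 CPM (median 30.3) against 222 to 426 (median 293), a log2 fold change of -2.76 (SE 0.34, edgeR adjusted p = 4.82e-05). The nicotinic subunit genes *Chrna7* (-2.41) and *Chrnb3* (-2.48) fell as well. *Chrm2* alone was higher, at 292 to 590 CPM (median 374) against 85.7 to 129 (median 104.1). This rise was not shared by all starburst cells. In the split by *Cntn5* and *Tenm3* given below, the median of *Chrm2* was 596 CPM on the *Tenm3* side. On the *Cntn5* side it was 14.6 CPM, below that of the other cells. Thus the muscarinic genes *Chrm2* and *Chrm3* moved in opposite directions.

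All of the 5 tested genes for GABA synthesis, transport and breakdown outside the rule were lower (median -0.54). *Abat*, whose product breaks GABA down, ranged from 9.20 to 53.6 CPM (median 19.96) against 168 to 203 (median 193), a log2 fold change of -2.95 (SE 0.23, edgeR adjusted p = 1.27e-06). The GABA transporter gene *Slc6a11* (GAT3) was lower by -2.0, the vesicular transporter gene *Slc32a1* by -0.54 and *Aldh5a1* by -0.51. The comparison cells had to hold 2 UMIs of *Gad1* plus *Gad2*, whereas starburst cells had to hold 1.

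Subunits of receptors for GABA and glycine differed in both directions. Of 22 tested genes of 26, 6 were higher, 10 were lower and 6 did not pass (median -0.09). *Gabra4*, the α4 subunit of extrasynaptic receptors, ranged from 246 to 602 CPM (median 370) against 8.39 to 18.5 (median 12.4), a log2 fold change of 5.00 (SE 0.18, edgeR adjusted p = 2.66e-09). Its partner subunit δ, encoded by *Gabrd*, ranged from 85.2 to 132 CPM (median 119) against 11.9 to 20.8 (median 14.0), a log2 fold change of 3.02. The β subunit gene *Gabrb1* (2.48), the scaffold gene *Gphn* (0.34) and the glycine receptor gene *Glra4* (5.95) were higher too. Among the lower genes were the α subunit gene *Gabra3* (-3.11), the γ subunit genes *Gabrg1* (-3.40) and *Gabrg3* (-2.23), *Gabrb2* (-2.87), *Gabbr2* (-2.32) and the glycine receptor genes *Glra1* (-2.65), *Glra2* (-1.93) and *Glra3* (-4.24).

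Glutamate receptors showed a like mixture, with 5 of 25 tested genes higher, 14 lower and 6 not passing (median -0.68). Of all genes tested, 15.4% were higher and 17.5% were lower. Higher were the metabotropic receptor genes *Grm3* (2.12), *Grm2* (2.04) and *Grm8* (1.5) and the NMDA receptor genes *Grin2b* (1.37) and *Grin2c* (1.10). *Grm8* ranged from 2495 to 3328 CPM (median 3070) against 1007 to 1278 (median 1052). The lower genes included *Grin2a* (-2.75) and *Gria1* (-2.69). *Gria1*, an AMPA receptor subunit gene, ranged from 37.4 to 186 CPM (median 66.0) in starburst cells and from 448 to 607 (median 503) in the other cells.

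Of 17 tested voltage-gated calcium channel genes, 7 were higher, 8 were lower and 2 did not pass (median 0.15). The genes for the P/Q-type and N-type channels, which drive transmitter release, were higher: *Cacna1a* by 1.08 and *Cacna1b* by 1.17. *Cacna1b* ranged from 470 to 816 CPM (median 738) against 270 to 350 (median 337), and S07 was again the lowest. The auxiliary subunit genes *Cacnb3* (2.99), *Cacna2d1* (2.18) and *Cacnb4* (1.03) rose as well, and so did *Cacna1f* (0.97) and *Cacna2d4* (0.61), which photoreceptors and bipolar cells use at their ribbon synapses. The L-type genes *Cacna1c* (-2.72) and *Cacna1d* (-0.98), the R-type gene *Cacna1e* (-4.17) and the T-type genes *Cacna1g* (-0.90), *Cacna1h* (-1.67) and *Cacna1i* (-2.58) were lower.

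Potassium channel and HCN genes were lower in 19 and higher in 5 of 35 tested (median -0.86), beside 17.5% and 15.4% of all genes tested. The higher genes included *Kcnk2*, *Kcnc1* and *Kcnb2* (3.53). *Kcnb2* ranged from 2203 to 3339 CPM (median 2594) against 212 to 291 (median 229). *Kcna1* (Kv1.1) ranged from 0 to 6.12 CPM (median 5.07) against 67.2 to 83.6 (median 80.8), a log2 fold change of -4.16. Among 6 tested chloride transporter genes, 4 were lower, including the exporter gene *Slc12a5* (KCC2) by -0.33, which did not pass after thinning to 3000 UMIs (edgeR adjusted p = 0.175), and *Clcn2* was higher by 0.67.

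Of 17 tested amacrine transcription factors, 5 were higher, 8 were lower and 4 did not pass (median -0.38). Beside *Sox2* and *Isl1*, the higher genes were *Neurod1* (1.30), which photoreceptors also express, *Barhl2* (1.12) and *Satb1* (0.74). *Neurod1* ranged from 33.8 to 120 CPM in starburst cells, highest in S07, whose starburst cells also held the most rod RNA, and from 18.9 to 82.8 in the other cells. *Meis2* fell by 3.35 on the log2 scale, at 57.0 to 397 CPM (median 160) against 1413 to 1722 (median 1596). *Pax6* was lower (-1.16) but was detected in 146 of 146 members.

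Molecules of lamination and self-contact were lower in 22, higher in 8 and did not pass in 8 of 38 genes (median -1.13). Higher were *Megf11*, *Megf10* and *Plxna2*, the cadherin gene *Cdh6* (3.63), the teneurin gene *Tenm2* (2.40), *Flrt2* (1.28), *Cntn5* (0.77) and *Pcdhgc3* (0.73). *Tenm2* ranged from 5362 to 12404 CPM (median 7853) against 1179 to 2075 (median 1721). *Dscam* (-3.13), *Sdk1* (-3.00), *Tenm4* (-3.68) and *Tenm1* (-4.28) were lower. *Tenm1* ranged from 3.07 to 79.4 CPM (median 29.3) against 481 to 722 (median 590).

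Genes of vesicle release split in the same way, with 7 of 37 higher, 18 lower and 12 not passing (median -0.27). *Sv2c*, a synaptic vesicle glycoprotein gene, ranged from 277 to 504 CPM (median 414) against 27.1 to 68.6 (median 54.7), a log2 fold change of 3.16, and the active-zone gene *Rims1* rose by 1.93. *Syt1*, the sensor for fast release, was higher by 0.39, while *Syt7* (-3.87) and *Unc13c* (-3.13) were lower. Of the 18 neuropeptide and co-release genes only 3 were abundant enough to be tested: *Npy* (1.63) and *Slc17a7* (0.74), a photoreceptor and bipolar cell gene, were higher and *Tac1* (-3.12) was lower. Of the immediate early and stress genes 14 could be tested, with 4 lower and 0 higher (median -0.62), and of the glucocorticoid-responsive genes 6, with 2 lower and 0 higher (median -0.18), beside 17.5% of all genes tested that were lower and 15.4% that were higher.

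Of 10 genes named in the text of the study for other cell types, 8 could be tested in this comparison. *Trpm3*, the host gene of miR-204, ranged from 80.2 to 502 CPM (median 210) in starburst cells and from 1646 to 1830 (median 1738) in the other cells, a log2 fold change of -2.77 (SE 0.26, edgeR adjusted p = 5.41e-06). *Gdf11* (1.03) and *Mlec* (0.56) were higher, although *Gdf11* did not pass without S01, nor *Mlec* with no filter on low counts (edgeR adjusted p = 0.0569) or without the 5% of cells deepest in UMIs (0.0633). *Trpm1*, the host gene of miR-211 and an ON bipolar gene, had 694 CPM in S03 against 30.3 to 284 in the other starburst samples, and a log2 fold change of 0.27 (edgeR adjusted p = 0.753). The 5 ON bipolar markers summed to 2520 CPM in the starburst cells of S03 and to 477 to 1115 in those of the other mice compared.

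**Figure D3:**
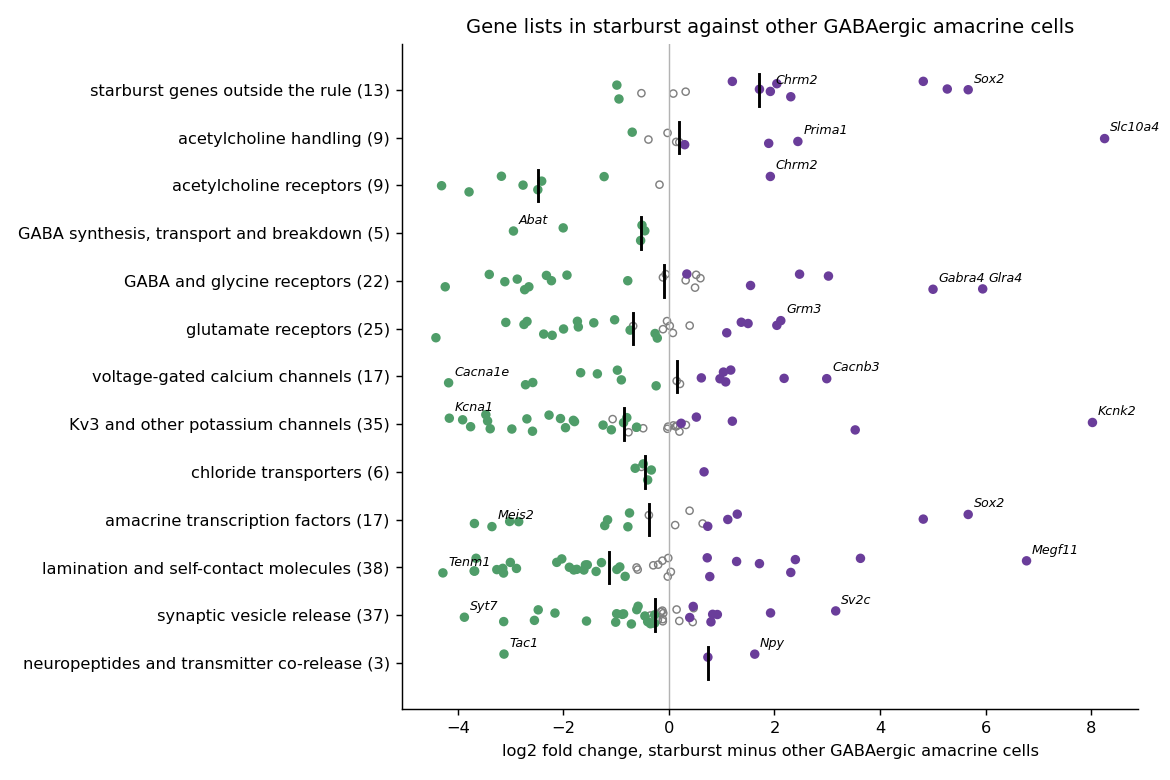
Log2 fold change of each tested gene, starburst minus other GABAergic amacrine cells, by gene list, with the number tested in parentheses. Purple and green points passed (adjusted p below 0.05), open points did not, and black bars are medians, which lie at 1.72 for starburst genes outside the rule and at -2.48 for acetylcholine receptors.

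Starburst cells differed among themselves in *Cntn5* and *Tenm3*, genes for a contactin and a teneurin adhesion molecule. This split was chosen after the values had been seen and is given as a description, with no test. *Cntn5* supplied at least 90% of the UMIs of both genes in 47 members (32.2%) and at most 10% in 83 (56.8%). It lay between in 15, and 1 member had neither. Near the lower limit, 6 cells lay from 5% to 10% and 6 above 10% and up to 20%, and near the upper limit 1 cell lay from 80% to below 90% and 2 from 90% to 95%. Median depths were 33395 UMIs on the *Cntn5* side and 31074 on the *Tenm3* side.

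Both sides were present in all 8 mice that had starburst cells. The *Cntn5* side made up 33.3%, 29.4% and 22.2% of the starburst cells in control mice S01, S02 and S03, and 26.9%, 38.9%, 31.8% and 43.5% in dKO mice S06, S07, S08 and S09. It held 1 of 4 cells in S05. The ranges of the groups overlapped.

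*Fezf1*, a transcription factor that marks ON starburst cells in the mouse, was detected in 12 members, all of them on the *Cntn5* side. On the *Tenm3* side it was detected in 0 of 83 cells, which allows a share of cells with a UMI of up to 3.61%. *Rnd3*, which marks OFF starburst cells, was detected in 36 of 83 cells on the *Tenm3* side and 2 of 47 on the *Cntn5* side. *Fezf1* was too sparse to divide the cells by itself, since 35 of the 47 cells on the *Cntn5* side held no UMI of it.

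**Figure D4:**
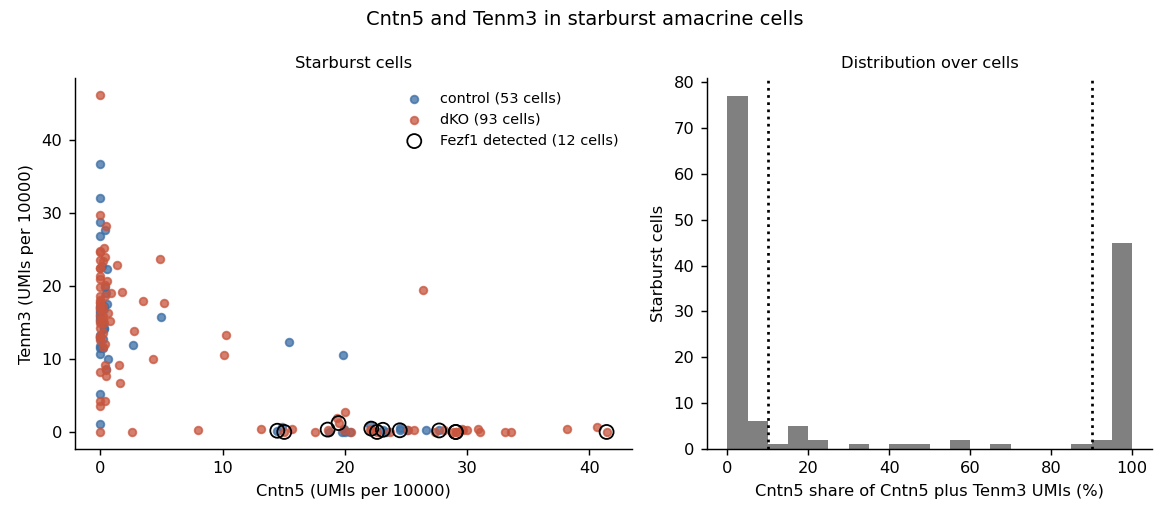
Left, *Cntn5* and *Tenm3* in UMIs per 10000 in each of the 146 starburst cells, coloured by group, with the 12 cells in which *Fezf1* was detected ringed. Right, the number of cells by the *Cntn5* share of both genes' UMIs, with dotted lines at 10% and 90%: most cells lie at either end.

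Many further genes followed the split. In the 7 mice with at least 4 cells on each side, 3860 genes reached 50 CPM on either side, and 162 of them differed by more than 2-fold (after adding 5 CPM) in the same direction in all 7 mice, 80 higher on the *Cntn5* side and 82 on the *Tenm3* side. On the *Cntn5* side, the glycine receptor gene *Glra4* ranged from 55.9 to 127 CPM (median 98.7) against 0 to 2.33 (median 0). The neuregulin gene *Nrg1* ranged from 3019 to 5528 CPM (median 3455) against 23.8 to 1062 (median 416). Also higher there without overlap were the guidance gene *Slit2* (1176 against 223 CPM on average), *Grm3* (469 against 69.8), the chloride channel gene *Cftr* (228 against 30.3), *Pmfbp1* (273 against 24.1), *Sel1l3* (183 against 4.46), *Shc3* (263 against 20.6), *Slc6a11* (273 against 82.8), *Npy* (50.1 against 11.9) and *Sema6a* (319 against 169). *Megf10* averaged 76.0 against 14.5 CPM, with overlap. On the *Tenm3* side *Slit2* ranged from 36.8 to 679 CPM, with a median of 64.0.

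On the *Tenm3* side, the muscarinic receptor gene *Chrm2* ranged from 415 to 865 CPM (median 596) against 0 to 195 (median 14.6) on the *Cntn5* side. The transcription factor gene *Zfhx3* ranged from 658 to 963 CPM (median 831) against 12.9 to 410 (median 26.8). The potassium channel gene *Kcnk12* ranged from 66.3 to 221 CPM (median 135.1) against 0 to 5.76 (median 0). *Trhde* (263 against 2.21 CPM on average), *Igfbp5* (116 against 3.65), *Egfem1* (2231 against 374), *Gabra4* (485 against 174) and *Gabrb1* (1084 against 368) were also higher there, without overlap. *Igfbp5* ranged there from 46.0 to 488 CPM, with a median of 51.7. Genes shared by both sides included *Chat* (666 CPM on the *Cntn5* and 751 on the *Tenm3* side), *Gad1* (766 and 707), *Slc5a7* (604 and 508), *Megf11* (2193 and 1924) and *Frmd7* (137 and 179), whose ranges overlapped.

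The study's own contrast, dKO against control, was tested within starburst cells of mice with at least 10 of them, 3 control (S01 to S03) and 4 dKO (S06 to S09). Their summed starburst counts ranged from 561341 to 1056941 UMIs. In edgeR's quasi-likelihood fit of 7632 genes, 0 (0%) passed at an adjusted p of 0.05. Unadjusted, 208 (2.73%) lay below 0.05, of which 98 were higher and 110 lower in the dKO mice. With limma-voom 0 genes passed, and with DESeq2 1 did, *Aspa*. The values of the mice did not overlap between groups for 339 of the genes (4.44%), 145 higher and 194 lower in dKO. The median log2 fold change was 0.01.

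In these cells the 5 rod markers summed to 439 to 886 CPM in control and 276 to 3262 in dKO mice, highest in S07. The 5 ON bipolar markers summed to 514 to 2520 CPM in control, highest in S03, and to 477 to 1115 in dKO mice, and the 5 cone markers to 43.3 to 641 and 35.3 to 405. S07 was the only mouse of the 7 with Y-linked RNA in most of its starburst cells (18 of 18). The *Cntn5* side made up 22.2% to 33.3% of the starburst cells in control and 26.9% to 43.5% in dKO mice. The part of these differences in single genes was not tested.

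The lowest p belonged to *Aspa* (ENSMUSG00000020774, chr11:73187042-73220422, minus strand), the gene for aspartoacylase, which splits N-acetylaspartate. It was at 47.5, 71.3 and 62.1 CPM in control mice S01 to S03 and at 8.52, 16.5, 12.3 and 4.602 CPM in dKO mice S06 to S09. Every dKO mouse was below every control mouse. The log2 fold change was -2.49 (SE 0.35, unadjusted p = 3.3e-05, edgeR adjusted p = 0.252), and over the alternatives the adjusted p ranged from 8.69e-10 to 0.9998.

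Next among the lower genes was *Cacna2d3*, an auxiliary calcium channel subunit, at 134.7, 58.8 and 147 CPM in control and 19.9, 21.5, 39.9 and 50.6 CPM in dKO mice. Its log2 fold change was -1.80 (SE 0.40, unadjusted p = 0.00114, edgeR adjusted p = 0.999). *Clybl* (-1.02), the contactin gene *Cntn6* (-1.33) and the lipid transporter gene *Abca6* (-0.85) followed, also without overlap and with adjusted p of 0.999. On the other side stood *Slc31a1*, the copper importer gene, at 3.06, 5.34 and 4.33 CPM in control and 22.7, 32.9, 16.9 and 18.4 CPM in dKO mice, with a log2 fold change of 2.41 (SE 0.43, unadjusted p = 0.000243, edgeR adjusted p = 0.929). *Pdcl* (1.59), *Cfap74* (0.65), *Dtwd2* (1.29) and *Ercc8* (1.6) came next, each without overlap and with an adjusted p of 0.999. *Slc31a1*, *Pdcl*, *Dtwd2* and *Ercc8* each rest on 67 to 91 UMIs over the 7 mice. Since these genes were ranked by p, non-overlap is part of how they were picked. With no filter on low counts 132 genes passed, among them *Aspa*, *Cacna2d3*, *Cntn6* and *Slc31a1* (edgeR adjusted p 8.69e-10, 1.99e-09, 0.00283 and 0.0033).

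**Figure D5:**
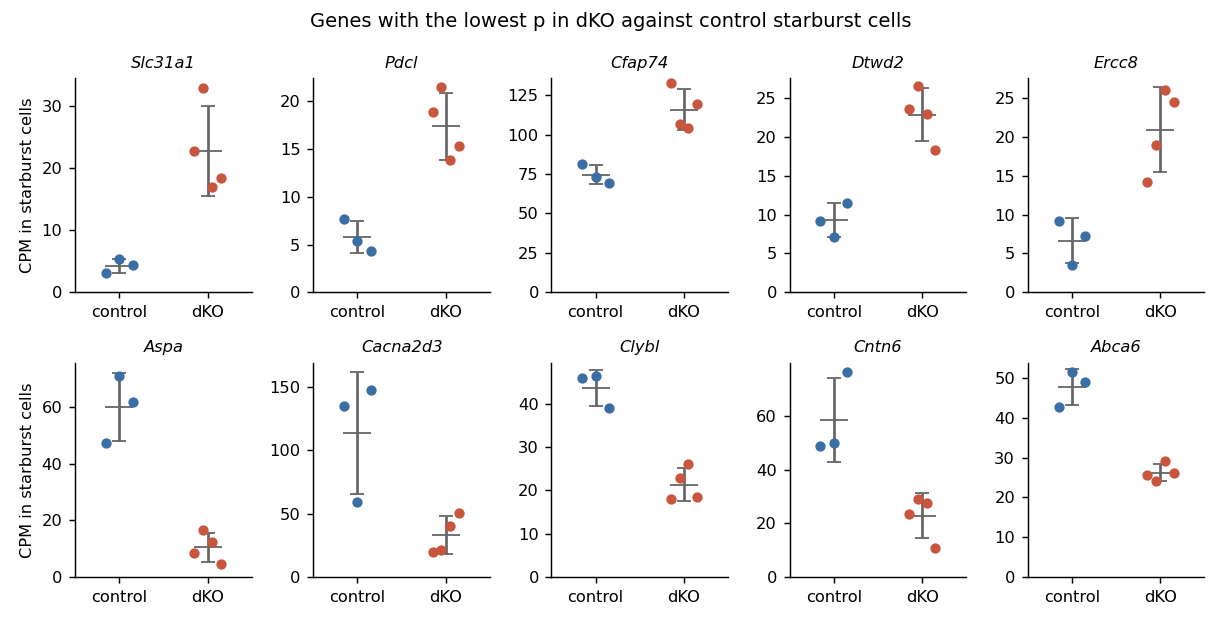
CPM in starburst cells of each mouse (points) with group means and SD (bars) for the 5 genes with the lowest p in each direction, 3 control and 4 dKO mice. None of the 10 passed the adjusted threshold in the main edgeR fit.

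None of the starburst genes tested passed between the groups in the main edgeR fit. As a description of rule genes, *Chat* averaged 742 ± 52.9 CPM over the 3 control mice and 665 ± 90.6 over the 4 dKO mice (SD), *Slc5a7* at 546 ± 50.1 and 486 ± 89.0, and *Gad1* at 741 ± 99.0 and 656 ± 90.2. Of the 13 tested starburst genes outside the rule, 0 had an unadjusted p below 0.05 (median 0.04). *Isl1* had 273, 358 and 292 CPM in control and 287, 267, 373 and 331 CPM in dKO mice, and its log2 fold change was 0.05 (SE 0.17). *Grm2* had 68.9, 71.3 and 80.8 CPM in control and 64.3, 63.4, 47.6 and 58.3 CPM in dKO mice, without overlap (log2 fold change -0.31, SE 0.18, edgeR adjusted p = 0.999). The control mice were also above the dKO mice for *Frmd7* (171 to 189 against 98.8 to 167 CPM) and *Mindy4b-ps* (113 to 221 against 71.0 to 99.7 CPM). *Frmd7* had a log2 fold change of -0.31 (SE 0.19, edgeR adjusted p = 0.999), and the mice did not overlap for 4.44% of all genes tested. Over the lists, the largest number of unadjusted p below 0.05 was 3 of 29 lamination genes, beside 2.73% of all genes tested, and the lowest p there was that of *Cntn6*. Among the 18 receptor genes for GABA and glycine it was 2, of which *Gabbr2* was at 106, 98.0 and 103.9 CPM in control and 83.3, 82.4, 53.7 and 52.2 CPM in dKO mice (log2 fold change -0.57, SE 0.20, edgeR adjusted p = 0.999).

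Genes that the study's text names for RPE, rods or Müller glia were looked up in the same fit. *Mlec* had a log2 fold change of -0.44 (SE 0.25), *Adamts10* of 0.57 (SE 0.38), *Trpm3* of -0.09 (SE 0.53) and *Trpm1* of -1.36 (SE 0.87), each with an edgeR adjusted p of 0.999. *Trpm1* ranged from -2.15 without S08 to -0.11 without S03, and with no filter on low counts it passed (-1.35, edgeR adjusted p = 1.79e-08). *Rn7sk* had 9.19, 16.03 and 8.66 CPM in control and 28.4, 293, 4.61 and 19.9 CPM in dKO mice, so S07 set its log2 fold change of 2.97 (SE 1.254, edgeR adjusted p = 0.999). With no filter, 21642 genes were tested in place of 7632, and 132 passed. *Rn7sk* was among them (2.94, edgeR adjusted p = 5.17e-16), on the same mice, with the 293 CPM of S07 included. In the filtered fit the log2 fold change of *Rn7sk* ranged from 0.73 to 3.35 without each mouse in turn. *Gdf11*, *Gm48606*, *Gm45895* and *Gm47469* were too low in starburst cells to be tested.

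Whether a dKO change was particular to starburst cells was asked with the interaction between cell kind and group in the same 7 mice. Among 11321 genes, 0 (0%) passed at an adjusted p of 0.05 in edgeR while 377 lay below 0.05 unadjusted, and DESeq2 and limma-voom called 0. The lowest p was that of *Slc31a1*, at 4.25 ± 1.14 CPM in starburst cells of the 3 control mice and 22.7 ± 7.24 CPM in those of the 4 dKO mice (SD), and at 18.3 ± 4.69 and 17.0 ± 3.38 in the other GABAergic amacrine cells (log2 difference of the changes 2.52, SE 0.39, edgeR adjusted p = 0.676). *Cntn6* was at 58.5 ± 15.6 and 22.8 ± 8.36 CPM in starburst and at 54.4 ± 8.33 and 59.4 ± 11.1 in the other cells (log2 difference -1.48, SE 0.29, edgeR adjusted p = 1). The further lowest p belonged to *Grm3* (0.85), *Cfap74* (0.68), *BC002059* (1.38) and *Pard3b* (1.56) upward and to *Dnah9* (-2.34), *Dusp15* (-1.98), *Sec22b* (-1.01) and *Clybl* (-1.06) downward. None of these differences passed the adjusted threshold with the filter on low counts. Without it 82 genes passed, among them *Slc31a1*, *Cntn6*, *Dnah9* and *Pard3b* (edgeR adjusted p from 1.68e-05 to 0.00579). *Grm3* was higher on the *Cntn5* side of the split (469 against 69.8 CPM on average), whose share of starburst cells differed between mice. The part of that mix in the interaction was not tested.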

How the data were processed

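Retinas of 9 mice were profiled by single-cell RNA sequencing with split-pool barcoding. Per the labels and methods, the authors made the deposited counts (UMIs per gene and cell) with split-pipe, and the submitters' processing notes name R 4.2.2 and Seurat 4.3.0. The counts of all 31089 cells equalled their listed totals. Doublets and free RNA were not removed here. The members, comparison cells and gene lists were chosen with earlier results of these data known, and the split by *Cntn5* and *Tenm3* after its values were seen.

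Counts were summed per mouse and cell group where at least 10 cells were present and tested with edgeR 4.0.16 (quasi-likelihood, TMM scaling, filterByExpr, Benjamini-Hochberg adjustment at 0.05) in R 4.3.3. Starburst and other GABAergic amacrine cells were compared with the mouse as a block, since both come from the same animals. Rule genes and the genes defining the comparison cells were described, not tested. Shares of cells were compared over mice by exact permutation tests (Python 3.11.15, numpy 2.4.6, scipy 1.17.1), with exact 95% binomial intervals that cover counting error only, and a count of 0 was given the limit that 3 counts allow. For detection at equal depth cells were thinned to 3000 UMIs, which left out 3903 shallower cells.

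Genes were named as the list members needed, as the 15 largest rises and 10 largest falls among genes called at 50 CPM or more with the same direction in every mouse, as the 5 lowest p in each direction for the other fits, and as those the study's text names. Alternatives were DESeq2 1.42.0, limma-voom (limma 3.58.1), library-size scaling, other filters, stricter cell rules and leaving out mice. Positions are from GRCm39 (GENCODE M39), and microRNA sequences from RefSeq (GRCm38.p6). The scripts were tested on simulated data. Some genes of the lists are not reported here.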

Additional observations from a re-analysis of the deposited data

Results flagged for a closer look

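Over 112 groups of 4 to 7 mice, 14 had a mouse set apart from the nearest other mouse. Its gap took more of the group's range than Dixon's 95% limit allows. That limit is made for independent, normally distributed values. Most of these groups were CPM of single genes in the same mice, so the 14 cannot be set against an expected number. S07 had the highest share of starburst cells among GABAergic amacrine cells of the dKO mice, at 19.6%, and the highest *Rn7sk*, at 293 CPM. Over the 7 mice it was also lowest for *Frmd7* (98.8 CPM) and *Cacna1b* (470.2 CPM) and highest for *Robo1* (445 CPM), *Hgf* (16.5 CPM) and *Cacna1e* (43.1 CPM) in starburst cells. Its starburst cells also held the most rod RNA, 3262 CPM summed over 5 rod genes, whose part in these values was not tested. S03 was highest for *Trpm1* at 694 CPM, and its 5 ON bipolar genes were highest too, at 2520 CPM. S08 was the highest dKO mouse for *Trpm3*, at 502 CPM. The others were *Mindy4b-ps* in S02 (220.9 CPM), *Hmga2* in S09 (244 CPM), *Maf* in S01 (21.4 CPM), *Kcnc2* in S09 (1545 CPM) and *Tac1* in S06 (8.52 CPM), all high.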

How the results depend on the processing

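Few cells limit these results: 17 to 26 starburst cells a mouse, and mice without enough cells left 3 against 4 for the dKO contrast. The 3366 genes called between starburst and other GABAergic amacrine cells became 1560 when a log2 fold change beyond 1 was also required and 1097 of 3032 tested after thinning, and ranged from 2960 to 3527 without each mouse in turn. With no replicate block the count was 3376. No paired analysis was possible because control and dKO mice share no replicate number, for the contrasts of dKO with control. The 0 genes called there became 1 with DESeq2 and 132 with no filter on low counts, and the 0 of the interaction became 82 with no filter; both stayed at 0 without each mouse in turn. The difference in the share among GABAergic amacrine cells was 4.25 points, and passed, without the 5% of cells deepest in UMIs, and ranged from 3.63 to 6.98 without each mouse. The difference in the share among all cells ranged from 0.0437 to 0.232.

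Of 1735 alternative values for single genes between starburst and other cells 7 changed sign, and of 270 between dKO and control 12, all of them for genes that did not pass or, for *Slc44a1*, under thinning (-0.083). For dKO minus control, *Trpm1* was 1.85 without the top 5%. *Trpm3* ranged from -0.60 to 0.37 without each mouse, and was 0.048 with limma-voom, 0.0142 without S04, S05 and S07, 0.0144 with S06 and S07 summed, 0.71 without the top 5%, 0.070 without the cells richest in rod RNA and 0.019 with *Xist*. For starburst minus other cells, *Kcnc2* was -0.036 with no filter and ranged from -0.0047 to 0.14 without each mouse. *Trpm1* ranged from -0.081 to 0.65, and was -1.05 with all 3 cholinergic genes, -0.53 without the top 5% and -0.20 without the cells richest in rod RNA. The causes were not tested. Leaving out bipolar-rich cells and dropping the minimum of cells were chosen after seeing the data. The fit of cells with *Fezf1* against other starburst cells, and its alternatives, were not run, since 12 cells in all held *Fezf1* and no mouse had 5.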
